A study of Mus musculus with 4 samples.

Results

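Toll-like receptors are the pattern-recognition receptors with which macrophages sense microbial lipids, proteins and nucleic acids. The 10 genes described here, Tlr1, Tlr2, Tlr3, Tlr4, Tlr5, Tlr6, Tlr7, Tlr8, Tlr9 and Tlr13, were chosen by name as the mouse family and make up 10 of the 21878 genes in the deposited count table, and all 10 passed the filter on low counts. They were divided by where the receptor works, into 5 genes for surface receptors (Tlr1, Tlr2, Tlr4, Tlr5 and Tlr6) and 5 for endosomal receptors (Tlr3, Tlr7, Tlr8, Tlr9 and Tlr13).

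RNA was sequenced from bone-marrow-derived macrophages (BMDMs), which are grown from marrow precursors with M-CSF, after coculture with MC38 cells, a colon cancer line of mice kept apart from the macrophages by a porous insert. Of the 4 libraries, 2 carried the genotype label anti-Act1, for mice with macrophage-specific knockdown of Act1, and 2 carried the label WT, and all were given as C57BL/6, 8 weeks of age and 48 h of coculture, whereas the study's own text also gives a shorter coculture for these libraries. The promoter that drives the knockdown is not given in the sources used here, no library of macrophages grown without MC38 cells was analysed here, and the study calls the 2 libraries of a group biological replicates without saying whether they came from separate mice or cultures, so that p-values measure the spread between these libraries. Act1, encoded by Traf3ip2, is the adaptor of the IL-17 receptor and also an E3 ubiquitin ligase.

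RNA of the knockdown's target was not lower in the anti-Act1-labelled libraries, although the study reported reduced Act1 expression in BMDMs of anti-Act1 mice. Traf3ip2 stood at 6.98 and 7.54 CPM (counts relative to a TMM-adjusted library size) in the WT-labelled libraries and 9.63 and 7.84 CPM in the anti-Act1-labelled pair (log2 fold change 0.27, adjusted p = 0.117 in edgeR). The Y-linked genes Ddx3y, Eif2s3y, Uty and Kdm5d had 2248 to 7360 counts in each library labelled WT and at most 1 count in each labelled anti-Act1, so that genotype and the sex of the cells cannot be told apart in any comparison below. These values do not settle whether the labels of the groups are right, and every direction given here holds for the libraries as labelled. Total counts were 64199075 and 75062945 in the WT-labelled libraries against 61926229 and 55435063 in the anti-Act1-labelled pair, and with counts thinned to the smallest total the same test still called 1 member higher and 7 lower. At these depths a floor of 3 counts corresponded to 0.0395 to 0.0549 CPM, far under every member's level, and such floors cover counting error only.

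As background, each receptor has an ectodomain of leucine-rich repeats that binds the ligand and a cytoplasmic TIR domain that recruits an adaptor. Most members signal through MyD88 to NF-κB and the production of inflammatory cytokines, Tlr3 signals through TRIF, and Tlr4 uses both. Surface members bind lipids and proteins, Tlr2 as a heterodimer with Tlr1 or Tlr6, while endosomal members bind nucleic acids and reach their compartment with the chaperone Unc93b1, where proteases trim several of them.

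Promoter sequence was examined for the members that changed most. A RefSeq table (GRCm38.p6) held promoter windows, each reaching from 250 bases before to 50 bases after a transcription start, for 8 of the 10 members, and not for Tlr4 and Tlr7. The 4 sequences below belong to Tlr2, the member that rose, and to Tlr5, Tlr9 and Tlr1, the members with the largest falls, and they are limited to bases before the start that lie in no annotated exon. Capitals mark motif matches, which are the NF-κB consensus in Tlr2, the AP-1 letters TGANTCA in Tlr9 and the PU.1-type ETS letters GAGGAAGT in Tlr1, and Tlr5 had none of the motifs searched.
Tlr2 promoter, chr3:83841768-83841858, minus strand: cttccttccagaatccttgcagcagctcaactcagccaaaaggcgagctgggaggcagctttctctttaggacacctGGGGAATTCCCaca
Tlr5 promoter, chr1:182954538-182954787, plus strand: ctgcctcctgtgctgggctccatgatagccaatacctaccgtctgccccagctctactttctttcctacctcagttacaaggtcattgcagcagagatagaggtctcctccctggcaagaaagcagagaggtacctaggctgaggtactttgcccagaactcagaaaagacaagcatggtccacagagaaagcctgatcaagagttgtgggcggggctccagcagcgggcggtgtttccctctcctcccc
Tlr9 promoter, chr9:106222348-106222597, plus strand: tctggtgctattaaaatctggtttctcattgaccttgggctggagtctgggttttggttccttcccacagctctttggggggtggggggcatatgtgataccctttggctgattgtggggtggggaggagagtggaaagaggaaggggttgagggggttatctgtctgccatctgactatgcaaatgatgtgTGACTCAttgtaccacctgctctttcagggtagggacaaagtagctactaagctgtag
Tlr1 promoter, chr5:64933564-64933808, minus strand: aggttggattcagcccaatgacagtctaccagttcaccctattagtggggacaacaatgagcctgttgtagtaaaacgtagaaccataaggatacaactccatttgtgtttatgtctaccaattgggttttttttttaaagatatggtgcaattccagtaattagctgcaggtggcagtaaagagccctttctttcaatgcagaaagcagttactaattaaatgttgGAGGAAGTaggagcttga

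In all, 6 motifs were searched on both strands of the whole windows, namely the NF-κB consensus, GAGGAAGT, TGANTCA, the interferon-stimulated response element, the C/EBP-type element TTGCNNNAA and the E-box CACGTG. The Tlr2 window held 3 matches to the NF-κB consensus, a pair overlapping at positions -173 and -172 from the start, which are the capitals above, and another at -8. Among all 32851 promoters in the table, 8.46% held at least 1 such match. Tlr3 also held 1 match to the NF-κB consensus, at -211, and was not called. GAGGAAGT lay in 3.2% of all promoters, and among the members in Tlr1 at -23 and, on the reverse strand, in Tlr9 at 10 bases after the start. The Tlr9 match to TGANTCA, a motif found in 7.81% of promoters, was at -58. The interferon-stimulated response element was found in 3.44% of promoters and, among the members, as an overlapping pair in Tlr6, a gene whose groups overlapped. TTGCNNNAA, present in 9.56% of promoters, was matched once in each of 2 Tlr6 windows, and CACGTG, present in 7.15%, in a second Tlr1 window. The windows of Tlr8 and Tlr13 held none of the 6. The whole windows can include annotated exon of the gene. Those of Tlr3 and the second of Tlr1 began in exon, and that of Tlr2 reached exon after 91 bases. These matches describe letters in the reference sequence and are not measured binding.

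Receptor transcripts were abundant but uneven in these macrophages. FPKM, counts scaled to gene length and library total, allows levels of different genes to be compared, and the mean over the 4 libraries ran from 127 FPKM for Tlr13 to 2.33 FPKM for Tlr5, a ratio of 54.4. Between them lay Tlr2 at 77.9, Tlr8 at 71.6, Tlr7 at 50.5, Tlr4 at 31.5, Tlr6 at 9.62, Tlr1 at 8.89, Tlr3 at 5.98 and Tlr9 at 4.12 FPKM. The genes Tlr13, Tlr2, Tlr8, Tlr7 and Tlr4 thus stood apart from the rest, and this upper set held sensors of bacterial ribosomal RNA, lipoproteins, single-stranded RNA and lipopolysaccharide. Within a group no 2 neighbours in the order overlapped, but the order differed between groups. In the libraries labelled WT Tlr8 ranked above Tlr2 and Tlr1 above Tlr6, and in the anti-Act1-labelled pair both pairs were the other way round.

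The order among some neighbours rests on the gene lengths behind the FPKM values. The length recovered from the deposited tables was 4834 bases for Tlr8 and 7891 for Tlr4, against 3586 and 5556 bases of merged exons in GENCODE M21. With GENCODE lengths, tried after the data were seen, Tlr2 stood at 87.3 and 84.1 FPKM and Tlr8 at 85.2 and 82.6 FPKM in the anti-Act1-labelled libraries, so that these ranges overlapped. By mean, Tlr6 then ranked above Tlr1 in both groups. Under the WT label the ranges of Tlr6 and Tlr1 overlapped too, at 9.01 and 9.51 against 8.90 and 9.35 FPKM. Fold changes of a gene between groups do not depend on its length.

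**Figure D1:**
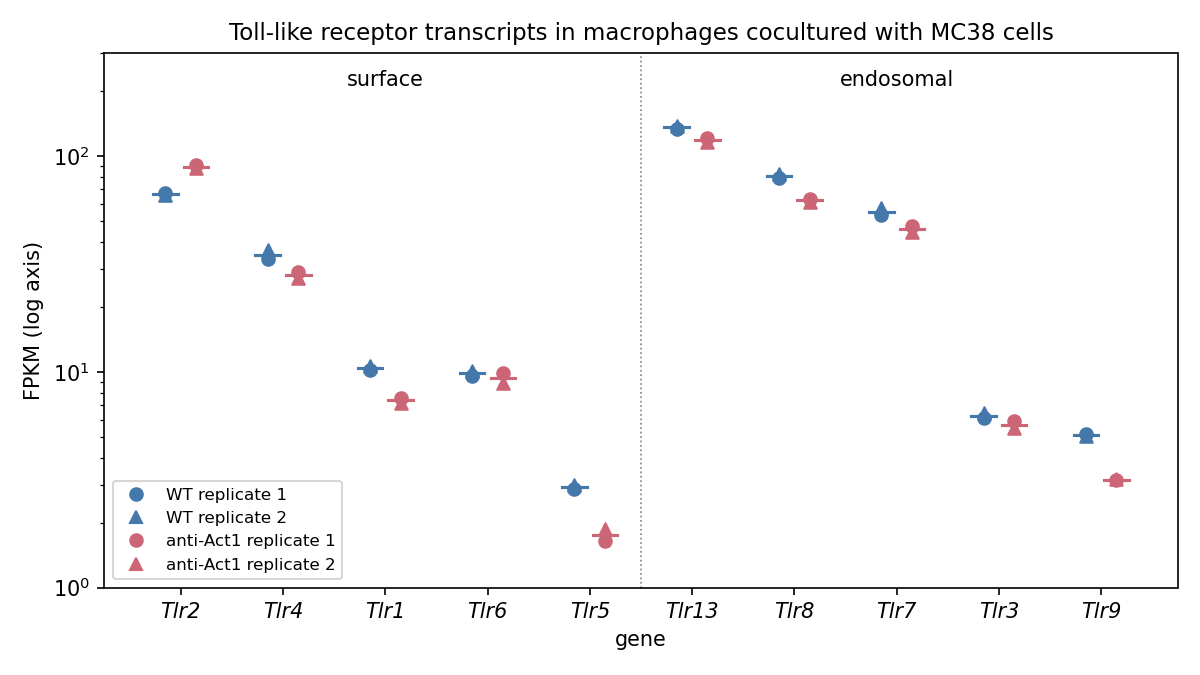
Level of each Toll-like receptor gene in FPKM (log axis), with surface members on the left and endosomal members on the right, each point 1 library and each bar the mean of the 2 libraries of a group. Only Tlr2 lies higher in both anti-Act1 libraries, while the points of Tlr6 overlap between groups and those of Tlr9 and Tlr5 are the most widely separated downwards.

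Of the 10 members, 8 passed an adjusted p under 0.05 in edgeR's quasi-likelihood test, 1 higher and 7 lower in the anti-Act1-labelled libraries. Over all 12494 genes tested, 20.7% passed, 10.9% higher and 9.76% lower. The median log2 fold change was -0.27 over the members and -0.0046 over all genes tested, whose quartiles were -0.12 and 0.13. DESeq2 called the same 8 members, 1 higher and 7 lower, where it called 8.84% of its 12190 tested genes higher and 7.4% lower. In 9 of the 10 members the CPM of the 2 groups did not overlap, 8 lower and 1 higher. Over all genes tested 57.1% did not overlap, 28.7% lower and 28.4% higher. In a bulk sample, fewer cells with a transcript and less of it per cell cannot be told apart.

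Among the surface members, Tlr2 rose while its partner Tlr1 fell. Tlr2, the receptor for bacterial lipoproteins, was measured at 194 and 188 CPM in the WT-labelled libraries and 264 and 257 CPM in the anti-Act1-labelled pair. Both anti-Act1 libraries lay above both WT libraries, and the difference was 0.45 on the log2 scale (SE 0.05, 95% interval 0.35 to 0.55, adjusted p = 1.56e-09 in edgeR), or 1.36-fold. Tlr1, which pairs with Tlr2 to bind triacylated lipoproteins, was at 29.6 and 30.9 CPM under the WT label and at 22.3 and 21.4 CPM under the anti-Act1 label. The Tlr1 groups did not overlap and the anti-Act1 libraries were the lower ones (log2 fold change -0.47 with an SE of 0.07, 95% interval -0.62 to -0.32, adjusted p = 1.55e-06 in edgeR). Tlr6, which pairs with Tlr2 to bind diacylated lipoproteins, had 33.4 and 35.1 CPM in the WT-labelled libraries and 34.8 and 31.6 CPM in the anti-Act1-labelled pair. Its groups overlapped and it was not called (log2 fold change -0.04, 95% interval -0.18 to 0.09, adjusted p = 0.725 in edgeR).

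Tlr1 and Tlr6 are adjacent on chromosome 5, and their coding sequences are close copies. Of the distinct stretches of 50 bases in their GENCODE transcripts, 13.6% of those of Tlr1 and 12.3% of those of Tlr6 occur in the other gene, so that the authors' counting could have split or dropped reads between them and both values are uncertain. Tlr2, Tlr5, Tlr7, Tlr8, Tlr9 and Tlr13 shared none with another gene. The ratio of Tlr2 to Tlr1 in FPKM was 6.66 and 6.16 in the WT-labelled libraries and 12.01 and 12.19 in the anti-Act1-labelled pair. Tlr2 to Tlr6 gave 7.05 and 6.49 against 9.19 and 9.86, and Tlr1 to Tlr6 gave 1.06 and 1.05 against 0.765 and 0.809. None of these 3 ratios overlapped between groups, although with 2 libraries against 2 an exact two-sided permutation test cannot go below p = 0.333.

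The remaining surface members fell. Tlr4, the receptor for lipopolysaccharide, was at 260 and 286 CPM in the WT-labelled libraries and 230 and 217 CPM in the anti-Act1-labelled pair. Every anti-Act1 value was below every WT value (log2 fold change -0.29 with an SE of 0.05, 95% interval -0.39 to -0.18, adjusted p = 4.06e-05 in edgeR). Tlr5, the flagellin receptor and the least abundant member, had 10.3 and 10.7 CPM under the WT label and 5.99 and 6.92 CPM under the anti-Act1 label. This was the lowest fitted value in the family, with an interval that overlapped that of Tlr9 (log2 fold change -0.71 with an SE of 0.12, 95% interval -0.94 to -0.47, adjusted p = 5.62e-06 in edgeR), to 0.612 of the WT level, and it rested on 370 to 815 counts per library, without overlap.

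Of the endosomal members 4 fell, and 0 rose. Tlr9, which recognizes unmethylated CpG DNA, was at 17.7 and 17.3 CPM in the WT-labelled libraries and 11.01 and 11.17 CPM in the anti-Act1-labelled pair. The replicates of each group lay close together and the groups far apart (log2 fold change -0.66 with an SE of 0.09, 95% interval -0.84 to -0.48, adjusted p = 1.35e-07 in edgeR). Tlr8, a relative of Tlr7 that binds RNA degradation products and restrains Tlr7 in mice, had 381 and 395 CPM under the WT label and 306 and 301 CPM under the anti-Act1 label. Its groups did not overlap and the anti-Act1 libraries were lower (log2 fold change -0.35 with an SE of 0.05, 95% interval -0.46 to -0.25, adjusted p = 2.92e-07 in edgeR).

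Tlr7, the receptor for single-stranded RNA, was measured at 205 and 221 CPM in the WT-labelled libraries and 184 and 175 CPM in the anti-Act1-labelled pair. Both anti-Act1 libraries were below both WT libraries (log2 fold change -0.25 with an SE of 0.05, 95% interval -0.35 to -0.14, adjusted p = 3.75e-04 in edgeR). Tlr13, which recognizes bacterial ribosomal RNA, was at 534 and 546 CPM under the WT label and at 487 and 471 CPM under the anti-Act1 label. It had the smallest change among the called members (log2 fold change -0.17 with an SE of 0.05, 95% interval -0.27 to -0.07, adjusted p = 0.00934 in edgeR). Without anti-Act1 replicate 2 the Tlr13 call was lost, at a log2 fold change of -0.15 and an adjusted p of 0.171. In limma on log2(FPKM + 1) without a filter, Tlr4, Tlr7 and Tlr13 did not pass (adjusted p = 0.0625, 0.0634 and 0.0582).

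Tlr3, the sensor of double-stranded RNA, had 28.3 and 29.8 CPM in the WT-labelled libraries and 27.6 and 25.9 CPM in the anti-Act1-labelled pair. The groups did not overlap, but the difference did not pass the test (log2 fold change -0.12, 95% interval -0.26 to 0.03, adjusted p = 0.277 in edgeR). An antisense transcript, Gm45542, overlaps Tlr3, and 5.3% of the stretches of 50 bases of Tlr3 occur in another gene, which was not recorded. As the strand of counting is not given in the sources used here, reads of Tlr3 and Gm45542 cannot be told apart where they overlap. The mouse genome holds 2 further family genes outside the 10. Tlr11 had 12 and 28 counts under the WT label and 18 and 17 under the anti-Act1 label, and Tlr12 had 2 and 13 against 4 and 2, so that both were close to absent beside the members.

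**Figure D2:**
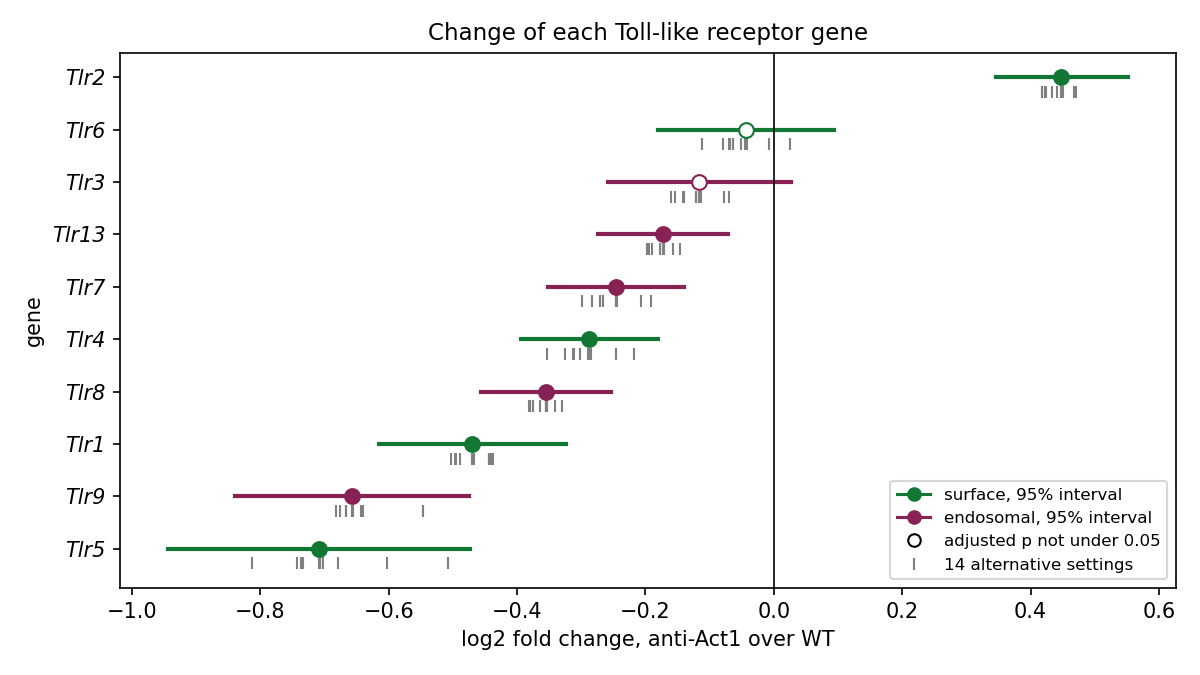
Log2 fold change (anti-Act1 over WT) of the 10 members with its 95% interval from edgeR, ordered by size, filled where the adjusted p was under 0.05, with grey ticks for the values under 14 alternative settings. Tlr2 alone lies wholly above 0, and the intervals of Tlr6 and Tlr3 include 0. Of the members with a negative value, only Tlr6 has a tick above 0.

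Tlr2 made up a larger share of the receptor pool in the anti-Act1-labelled libraries, and the endosomal members together a smaller one. The median log2 fold change was -0.29 over the 5 surface members, of which 1 was called higher and 3 lower, and -0.25 over the 5 endosomal members, of which 0 were called higher and 4 lower. The summed level of all 10 genes was 401 and 415 FPKM in the WT-labelled libraries and 380 and 362 FPKM in the anti-Act1-labelled pair. Endosomal members supplied 69.3% and 69.6% of that sum under the WT label and 63.4% and 63.4% under the anti-Act1 label, which did not overlap. Tlr2 alone accounted for 16.8% and 15.8% of the sum in the WT-labelled libraries and for 23.9% and 24.2% in the anti-Act1-labelled pair. Since Tlr2 is part of the sum, its rise lowers the share of all other members, and a share without Tlr2 was not computed. The lower endosomal share is thus no measure of a larger fall in that class, whose median lay close to the surface median. With GENCODE lengths the endosomal share was 68.9% and 69.1% against 63.3% and 63.4%.

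**Figure D3:**
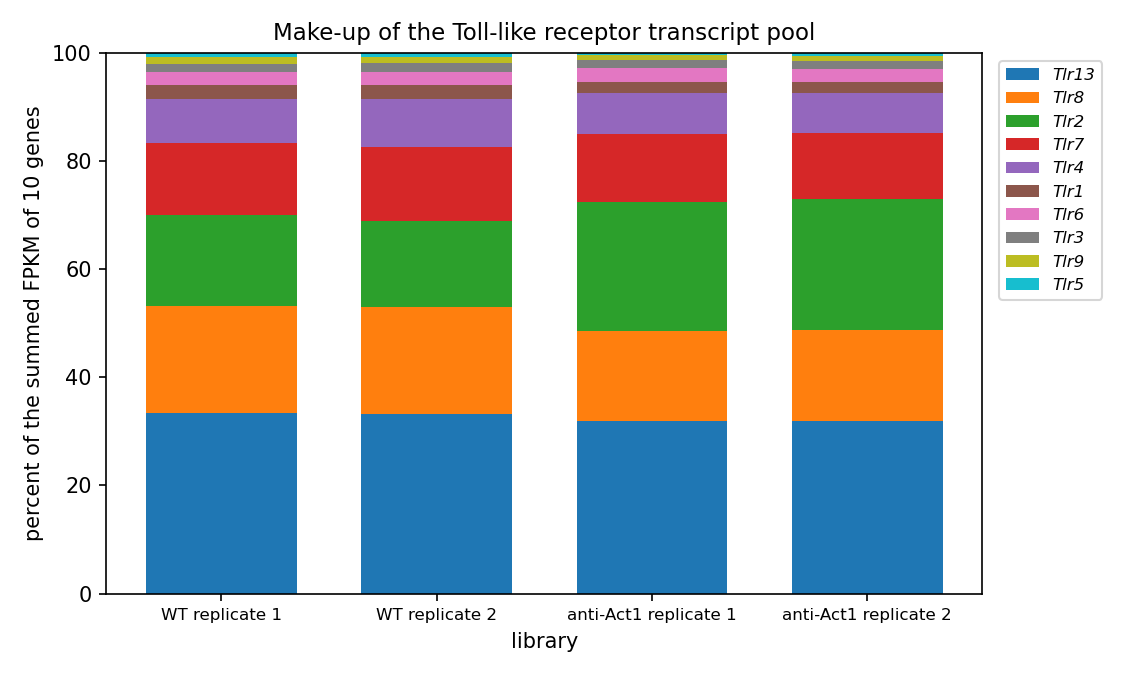
Share of the summed FPKM of the 10 genes taken by each gene, in percent, with 1 bar for each library. The Tlr2 segment is wider in both anti-Act1 libraries (23.9% and 24.2%) than in both WT libraries (16.8% and 15.8%), and Tlr13 is the widest segment in all 4.

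The 3 members on the X chromosome, Tlr7, Tlr8 and Tlr13, are the most abundant endosomal members, and all 3 fell. Tlr7 and Tlr8 are adjacent there. Among the other 363 X-linked genes tested 28 were called higher and 45 lower (12.4%), with a median log2 fold change of -0.04, and among 11562 autosomal genes tested 9.71% were called lower. The median of the 3 members was -0.25 and was -0.30 when WT replicate 1 was left out and -0.19 when WT replicate 2 was. Since the groups also differed in Y-linked RNA, an X-linked difference and a difference by genotype cannot be told apart. The autosomal members gave 1 call higher and 4 lower of 7.

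The macrophage identity of the libraries was plain in their markers. Adgre1, Csf1r, Cd68, Itgam, Fcgr1, Lyz2 and Mertk summed to 17771 to 18610 FPKM in the WT-labelled libraries and 18536 to 19002 FPKM in the anti-Act1-labelled pair. Lyz2 gave most of that sum, at a mean of 15565 FPKM under the WT label and 16347 FPKM under the anti-Act1 label. Of the 7 genes 0 were called higher and 2, Itgam and Mertk, lower, at log2 fold changes of -0.31 and -0.40. In CPM, Adgre1, Csf1r, Itgam, Fcgr1 and Mertk lay lower in both anti-Act1-labelled libraries, Lyz2 lay higher and Cd68 overlapped. Epithelial markers of the MC38 cells were nearly absent, as 6 of them summed to 0.115 and 0.128 FPKM under the WT label and 0.171 and 0.0564 FPKM under the anti-Act1 label, with Krt8 and Krt18 at 0 counts in all libraries. Tlr9 is also a gene of B cells and plasmacytoid dendritic cells. Of the B-cell markers, Ms4a1 and Pax5 had at most 6 counts in any library, Cd79a 7 to 18 counts and Cd79b 175 to 218 counts, and neither Cd79a nor Cd79b was called (adjusted p = 0.744 and 0.162 in edgeR). The 5 plasmacytoid markers summed to 421 and 365 FPKM under the WT label and 501 and 497 FPKM under the anti-Act1 label, with 1 called higher and 1 lower. Bst2, an interferon-induced gene that gave most of that sum, was higher (log2 fold change 0.39, adjusted p = 2.84e-07 in edgeR), and the transcription factor gene Tcf4 was lower, at 97.8 and 103.9 CPM against 85.4 and 88.1 CPM (log2 fold change -0.22, adjusted p = 0.00262 in edgeR). Ccr9 had 20 to 47 counts and was not called, Siglech had at most 2 counts and Klk1 was at 0. The part of such cells in the fall of Tlr9 was not tested.

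Some neutrophil markers, present at few counts, moved with the groups. Ngp had 43 and 47 counts in the WT-labelled libraries and 11 and 5 in the anti-Act1-labelled pair, and both Ngp and Ltf were called lower among 5 neutrophil markers tested, although Ltf did not pass in DESeq2 (adjusted p = 0.0638). Camp, Elane and Mmp8 were not called, at log2 fold changes of 0.20, -0.99 and 0.02 (adjusted p = 0.874, 0.415 and 0.844 in edgeR). Elane was nonetheless lower in both anti-Act1-labelled libraries, while Camp and Mmp8 overlapped. Mpo, which was not tested, had 4 and 13 counts under the WT label and 0 in each anti-Act1-labelled library. Ly6g had at most 5 counts, and the summed level of the 7 neutrophil markers, nearly all from Mmp8, was 215 and 221 FPKM against 221 and 212 FPKM. The part of such cells in the differences of the members was not tested. T-cell markers summed to 9.59 and 9.44 FPKM against 10.1 and 11.3 FPKM, mostly Cd4, while conventional dendritic cell markers were at 0.832 to 1.05 FPKM in all libraries and fibroblast markers at no more than 0.136 FPKM. Cd4, the only T-cell marker tested, was called higher (log2 fold change 0.21, adjusted p = 0.0358 in edgeR). It was called in 6 of 14 alternatives, and not in DESeq2 (adjusted p = 0.126).

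Genes that act with the receptors were compared by role, from 7 lists, none of which was tested as a set. Over all genes tested 20.7% were called, 10.9% higher and 9.76% lower. The share called was 26.7% for co-receptors, 50% for proteases, 42.3% for adaptors, 53.3% for inhibitors and 44.4% for host ligands. It was 76.5% for MyD88 targets and 92.3% for TRIF and interferon targets. Of 17 genes listed for co-receptors, chaperones and trafficking 15 were tested, with 1 called higher, 3 lower and a median log2 fold change of -0.02. That list also held the receptor genes Tlr11, which was tested and not called, and Tlr12, which was not tested. Ly86, the secreted partner of the Tlr4 homologue Cd180, fell from 185 and 182 CPM to 145 and 144 CPM (log2 fold change -0.35 with an SE of 0.05, adjusted p = 7.76e-07 in edgeR), and Cd180 itself fell from 158 and 165 CPM to 146 and 147 CPM (log2 fold change -0.15, adjusted p = 0.0398 in edgeR). Nrros, a leucine-rich repeat protein of the endoplasmic reticulum, was also lower (log2 fold change -0.19, adjusted p = 0.00486 in edgeR). Cd14, which hands lipopolysaccharide to Tlr4 and assists Tlr2, was the most abundant of the list and higher, with 1896 and 1819 CPM under the WT label and 2096 and 2069 CPM under the anti-Act1 label (log2 fold change 0.16 with an SE of 0.05, adjusted p = 0.0114 in edgeR).

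The chaperone of the endosomal receptors, Unc93b1, was at 779 and 793 CPM against 735 and 816 CPM, with overlapping groups (log2 fold change -0.02, adjusted p = 0.839 in edgeR). Ly96, the MD-2 subunit that binds lipopolysaccharide with Tlr4, was at 15.3 and 16.7 CPM against 15.2 and 14.6 CPM and was not called (adjusted p = 0.458 in edgeR). The 4 calls in this list fell to 2 without WT replicate 2 and to 1 without anti-Act1 replicate 1, when Cd14, Cd180 and Nrros were no longer called. The Cd180 call was also lost without anti-Act1 replicate 2 and the Cd14 and Cd180 calls without WT replicate 2, and over the 14 alternatives Cd14 was called in 8 and Cd180 in 9.

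Of 6 proteases that process endosomal receptors, 2 rose and 1 fell. Ctsk, or cathepsin K, went from 243 and 230 CPM in the WT-labelled libraries to 319 and 314 CPM in the anti-Act1-labelled pair (log2 fold change 0.42 with an SE of 0.05, adjusted p = 7.17e-09 in edgeR), and Ctsl, or cathepsin L, was higher by 0.35 on the log2 scale (SE 0.05, adjusted p = 2.37e-07 in edgeR). Cathepsin B, Ctsb, was lower (log2 fold change -0.14, adjusted p = 0.0265 in edgeR), a call kept in 8 of 14 alternatives and lost with the replicate number as a block, in all 3 limma settings, without WT replicate 1 and without anti-Act1 replicate 1. Ctss, the most abundant of the 6 in FPKM, was not called (log2 fold change 0.11, adjusted p = 0.0933 in edgeR), but it passed in DESeq2 (adjusted p = 0.0354) and in 3 of 14 alternatives in all.

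Adaptors and kinases downstream of the receptors moved both ways, with 6 of 26 called higher, 5 lower and a median log2 fold change of -0.02. Myd88, the adaptor of nearly all members, was at 92.5 and 91.2 CPM in the WT-labelled libraries and 87.1 and 85.0 CPM in the anti-Act1-labelled pair and was not called (adjusted p = 0.248 in edgeR). Tirap, which bridges Myd88 to Tlr2 and Tlr4, and Ticam1, the gene of TRIF, were not called either (adjusted p = 0.862 and 0.448 in edgeR). Ticam2, the TRAM adaptor that couples Tlr4 to TRIF, rose from 114 and 115 CPM to 156 and 149 CPM (log2 fold change 0.41 with an SE of 0.05, adjusted p = 2.11e-08 in edgeR). Traf6, the ubiquitin ligase shared by these pathways, rose by 0.43 on the log2 scale (SE 0.06, adjusted p = 3.36e-08 in edgeR). Irf7, the interferon regulatory factor of Tlr7 and Tlr9 signalling and the most abundant gene of the list in FPKM, rose from 630 and 604 CPM to 845 and 851 CPM (log2 fold change 0.46 with an SE of 0.05, adjusted p = 4.59e-10 in edgeR). The 11 calls dropped to 6 without either anti-Act1 replicate.

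Inhibitors of the pathway were evenly divided, with 4 of 15 tested called higher, 4 lower and a median log2 fold change of 0.08. Tnfaip3, also a target in the MyD88 list and the gene of the deubiquitinase A20 that ends NF-κB signalling, rose from 73.5 and 72.9 CPM in the WT-labelled libraries to 113 and 114 CPM in the anti-Act1-labelled pair (log2 fold change 0.63 with an SE of 0.05, adjusted p = 5.31e-13 in edgeR). Irak3, a kinase homologue that blocks release of the active kinases, rose by 0.44 on the log2 scale (SE 0.06, adjusted p = 4.93e-08 in edgeR), and the adaptor Dok2 fell by 0.36 on the log2 scale (SE 0.06, adjusted p = 3.46e-06 in edgeR). Lgals3bp, the most abundant of the list in FPKM, was higher (log2 fold change 0.17, adjusted p = 0.0142 in edgeR) and was called in 8 of 14 alternatives, losing its call without WT replicate 1, without anti-Act1 replicate 2, without composition normalization and in all 3 limma settings. Without anti-Act1 replicate 2 the list kept 4 calls.

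Of the genes listed for host-derived ligands of Toll-like receptors, 9 of 11 were tested, with 2 called higher, 2 lower and a median log2 fold change of 0.02. Saa3, an acute-phase protein and the most abundant of the list, rose from 95.9 and 86.8 CPM to 213 and 202 CPM (log2 fold change 1.18 with an SE of 0.06, adjusted p = 1.82e-22 in edgeR). The matrix proteoglycan Vcan fell from 95.7 and 99.5 CPM to 75.3 and 76.2 CPM (log2 fold change -0.37 with an SE of 0.06, adjusted p = 9.48e-07 in edgeR). S100a9 and S100a8, whose proteins pair as calprotectin, were both called but in opposite directions.

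Most of the target genes tested rose. Among 17 tested targets reached through MyD88 and NF-κB 13 were called higher and 0 lower, with a median log2 fold change of 0.95, and among 13 tested targets of TRIF and interferon 12 were called higher and 0 lower, with a median of 0.52. Both lists overlap with gene groups already known to be higher in these libraries, so their direction is no independent evidence, and other receptors share these targets. Cxcl3, a neutrophil chemokine, rose from 3.48 and 3.65 CPM in the WT-labelled libraries to 11.3 and 12.8 CPM in the anti-Act1-labelled pair (log2 fold change 1.75 with an SE of 0.13, adjusted p = 1.57e-15 in edgeR). Cxcl1 and Il1a also rose, by 1.46 and 1.35 on the log2 scale (adjusted p = 3.17e-17 and 3.49e-21 in edgeR). Cxcl2, the most abundant of the MyD88 list in FPKM, went from 77.7 and 78.1 CPM to 154 and 146 CPM (log2 fold change 0.95 with an SE of 0.05, adjusted p = 3.06e-19 in edgeR).

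In the interferon list Cxcl10 rose from 2.86 and 3.48 CPM to 9.39 and 8.79 CPM (log2 fold change 1.52 with an SE of 0.14, adjusted p = 3.20e-12 in edgeR). Gbp2, a guanylate-binding protein, and the ubiquitin-like modifier Isg15 were higher by 0.79 and 0.57 on the log2 scale (adjusted p = 5.26e-16 and 2.49e-10 in edgeR). Irf7, given above, was also the most abundant gene of this list. The cytokine genes Il6 and Ifnb1 passed the test on few counts, with 4 and 2 counts of Il6 under the WT label against 17 and 18 under the anti-Act1 label and 4 and 0 counts of Ifnb1 against 10 and 16. Both lost the call without WT replicate 2 or without anti-Act1 replicate 1, and Il6 also without anti-Act1 replicate 2.

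**Figure D4:**
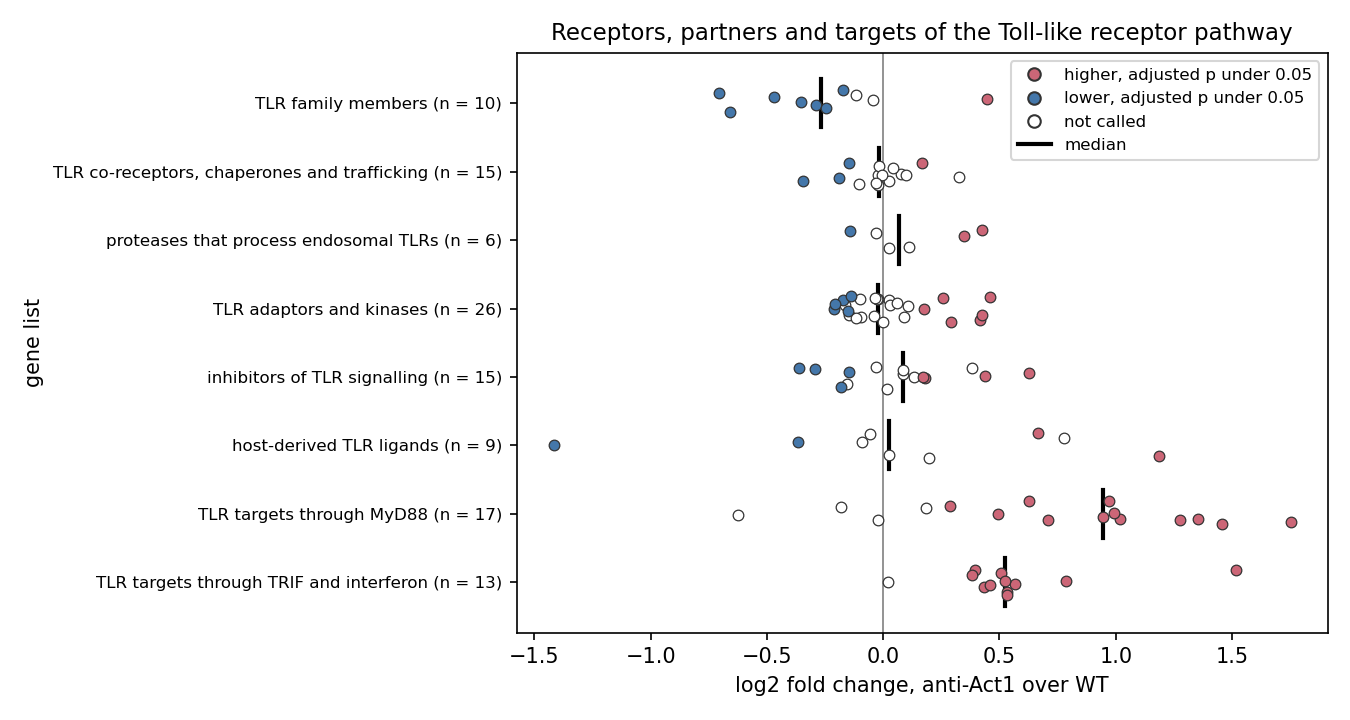
Log2 fold change (anti-Act1 over WT) of the tested genes of the family and of 7 lists of partners and targets, each point 1 gene, coloured where the adjusted p was under 0.05, with a black bar at the median of all tested genes of the list. The family's median is -0.27, the medians of the partner lists lie between -0.02 and 0.08, and those of the target lists are 0.95 and 0.52. Il6 and Ifnb1, with at most 6 counts over the 2 WT libraries, are not drawn. The co-receptor list includes the receptor gene Tlr11.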

How the data were processed

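Total RNA of 4 macrophage libraries was sequenced as read pairs. Low-quality reads and those with adapter or undetermined bases were discarded by the authors, who aligned the rest with TopHat and deposited whole, unnormalized counts per gene and FPKM values (counts divided by a gene length and the column total). The submitters' processing notes also list Bowtie 0.12.2, HTSeq 0.6.1, mm8 and mm10 without roles, so the build of the counts is not settled and gene coordinates of the files are not given. Dividing one table by the other gave the gene lengths.

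Groups follow the labels. The count table was tested with edgeR 4.0.16 in R 4.3.3 (TMM, filterByExpr, condition only, two-sided quasi-likelihood F test, Benjamini-Hochberg over 12494 genes, threshold 0.05), and standard errors were computed from the log2 fold change and the F statistic. The methods of the study name DESeq2, which was run as an alternative (1.42.0) beside its size factors, no composition normalization, no filter, a minimum of 10 counts, the replicate number as a block, limma 3.58.1 on log2(FPKM + 1) (genes at FPKM 1 or more in 2 libraries, or unfiltered) or log2(FPKM + 0.1), and each library left out. Thinned counts and GENCODE M21 lengths were added after the data were seen. Tests were checked on simulated counts.

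The members, the 7 lists, the markers and the motifs were chosen with earlier results of these data, or the sequences, known. All members are named, and of each list the 3 called genes with the largest change, no overlap and 1 CPM or more on average, the gene of highest mean FPKM and a few fixed adaptors and co-receptors. S100a8, S100a9, Il6, Ifnb1, Ngp, Ltf, Camp, Elane, Mmp8, Mpo, Cd4, Itgam, Mertk, Cd79a, Cd79b, Bst2, Tcf4, Ccr9, Tlr11 and Tlr12 were named after their values were seen. A search for genes of like pattern was not made over 4 libraries. Replicates of a group differed beyond counting noise (chi-square per degree of freedom 10.8 for WT and 7.45 for anti-Act1). The summed B-cell marker list is not reported here.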

Additional observations from a re-analysis of the deposited data

How the results depend on the processing

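Of the members, Tlr1, Tlr2, Tlr5, Tlr8 and Tlr9 passed the threshold under all 14 alternatives, Tlr4 and Tlr7 under 13 and Tlr13 under 12, and Tlr3 and Tlr6 under 0. Limma on log2(FPKM + 1) without a filter called 4 members lower, with adjusted p of 0.0625 for Tlr4, 0.0634 for Tlr7 and 0.0582 for Tlr13, and the cause was not tested. Without anti-Act1 replicate 2, Tlr13 had an adjusted p of 0.171 and Tlr6 reversed to a log2 fold change of 0.0245 (adjusted p = 0.908), with a range over the libraries left out of -0.1118 to 0.0245. Over all genes, limma called 908 higher on log2(FPKM + 0.1), and 582 higher and 509 lower on log2(FPKM + 1) without a filter, while leaving out 1 library gave 741 to 1208 genes lower. The median of the X-linked members ranged from -0.2989 to -0.1918 with 1 library left out. That of the other X-linked genes was -0.0626 without composition normalization, -0.0624 and -0.07 in limma on log2(FPKM + 1) and log2(FPKM + 0.1), and -0.0494 to -0.0207 with 1 library left out. Unfiltered limma left 2 calls among the co-receptors, 1 among the proteases, 7 among the adaptors and 5 among the inhibitors, and leaving out 1 library gave 1 to 4, 2 to 3, 6 to 10 and 4 to 7. The replicate numbers did not pair the samples (correlation over genes of the replicate differences between groups -0.0345). With the replicate number as a block, 2 co-receptor genes were called, Tlr2 stayed at a log2 fold change of 0.4482 and 1 member was called higher and 7 lower. With GENCODE lengths Tlr2 exceeded Tlr8 by 1.83 FPKM in the anti-Act1 libraries instead of 27.0. With 2 libraries per group, exact permutation of 1 value cannot reach the threshold, and depth limits Il6, Ifnb1, Tlr11 and Tlr12, with at most 28 counts per library.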

Other observations

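The paired genes of calprotectin, a host ligand of Tlr4, moved apart, and both were named after their values were seen. S100a8 was at 3.61 and 3.74 CPM in the WT-labelled libraries and 6.09 and 5.55 CPM in the anti-Act1-labelled pair (log2 fold change 0.66 with an SE of 0.15, adjusted p = 5.63e-04 in edgeR). S100a9 was at 1.83 and 1.55 CPM under the WT label and at 0.81 and 0.439 CPM under the anti-Act1 label (log2 fold change -1.42 with an SE of 0.32, adjusted p = 6.50e-04 in edgeR), on 24 to 118 counts per library. Neither gene overlapped between groups, and both were called in all 14 alternatives. Both are genes of neutrophils as well as of macrophages, and the part of neutrophil RNA was not tested.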
